A study of Mus musculus with 10 samples.

Results

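Nuclear receptors are transcription factors that bind lipids, hormones or drugs, or have no known ligand, and most of them act on DNA as dimers, often with a retinoid X receptor as the partner. Bound to DNA they recruit coactivators or corepressors, and in the liver they set the expression of genes for drug and bile acid handling, fatty acid oxidation, lipid synthesis and glucose production. The 31 genes described here were taken by symbol from a table of 53392 genes. They are 29 nuclear receptors, the corepressor Ncor1 and the coactivator Ppargc1b. The set is thus mostly receptors, and it holds only 1 corepressor. All 31 are protein-coding genes in the GENCODE M21 annotation of GRCm38, and 12 share exonic bases with another gene, 4 of them over 20%.

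The study asked what the loss of Fbp1, an enzyme of gluconeogenesis, does to the liver transcriptome. Livers of C57BL/6 mice aged 24 weeks were compared between 5 mice with the genotype Fbp1-deleted (replicates 6 to 10) and 5 wild-type mice (WT, replicates 1 to 5). The treatment protocol names a hepatic deficiency, but neither it nor any other source used here names the allele or a Cre line. Sex, feeding state, hour of collection, litter and batch are also not given. The design text speaks of biological replicates.

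The libraries held between 17778395 and 23894812 counts. Fbp1 itself was at 7.38 to 13.4 counts-per-million (CPM) in Fbp1-deleted livers and at 778 to 1050 CPM in WT livers. Xist, which is transcribed from the inactive X chromosome, was at 409.8 to 696 CPM in Fbp1-deleted and 342 to 696 CPM in WT livers, and the Y-linked Ddx3y at no more than 0.386 CPM in Fbp1-deleted and 0.566 CPM in WT livers. Summed hepatocyte markers stood at 73883 to 85412 CPM in Fbp1-deleted livers and at 46591 to 87241 CPM in WT livers. Most of this sum was Alb, which averaged 63690 CPM in Fbp1-deleted and 56504 CPM in WT livers. Of the 6 hepatocyte markers only Cps1 passed the test given below, as higher. On the first principal component (37.6% of the variance) Fbp1-deleted replicate 8 stood apart from the other Fbp1-deleted livers, at -6.39, nearest to WT. In whole liver, fewer cells of a type and less RNA per cell cannot be told apart.

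Most nuclear receptor transcripts that differed were lower in Fbp1-deleted livers. Of the 31 genes, 30 had enough counts to be tested, 10 passed the test as lower and 1 as higher, and 19 did not pass (quasi-likelihood test in edgeR, adjusted p under 0.05 by the Benjamini-Hochberg method). Over all 15392 genes tested, 10% passed as lower and 10.6% as higher, 20.6% in all. The share of lower genes was thus 33.3% among the tested members and that of higher genes 3.33%. The members were chosen with earlier results of these data known, so the shares describe this set and are no test of it. Fitted changes were below 0 for 24 of the 30 members, against 49.1% of all genes tested, and their median log2 change was -0.26, against 0.01 over all genes. The lower genes were Esr1, Nr1i3, Rxrg, Nr2f2, Nr3c1, Rara, Nr2f6, Esrrg, Rxra and Nr3c2, and the higher gene was Esrra. Without Fbp1-deleted replicate 9 there were 6 lower genes, without Fbp1-deleted replicate 6 or 7 there were 0 higher genes, and without WT replicate 3 there were 2. Over all genes the count of higher ones was 1066 without Fbp1-deleted replicate 9, and the counts were 1086 higher and 1019 lower without Fbp1-deleted replicate 6. With library totals alone 14 members were lower and 1 higher, against 1965 lower and 1190 higher of all genes.

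**Figure D1:**
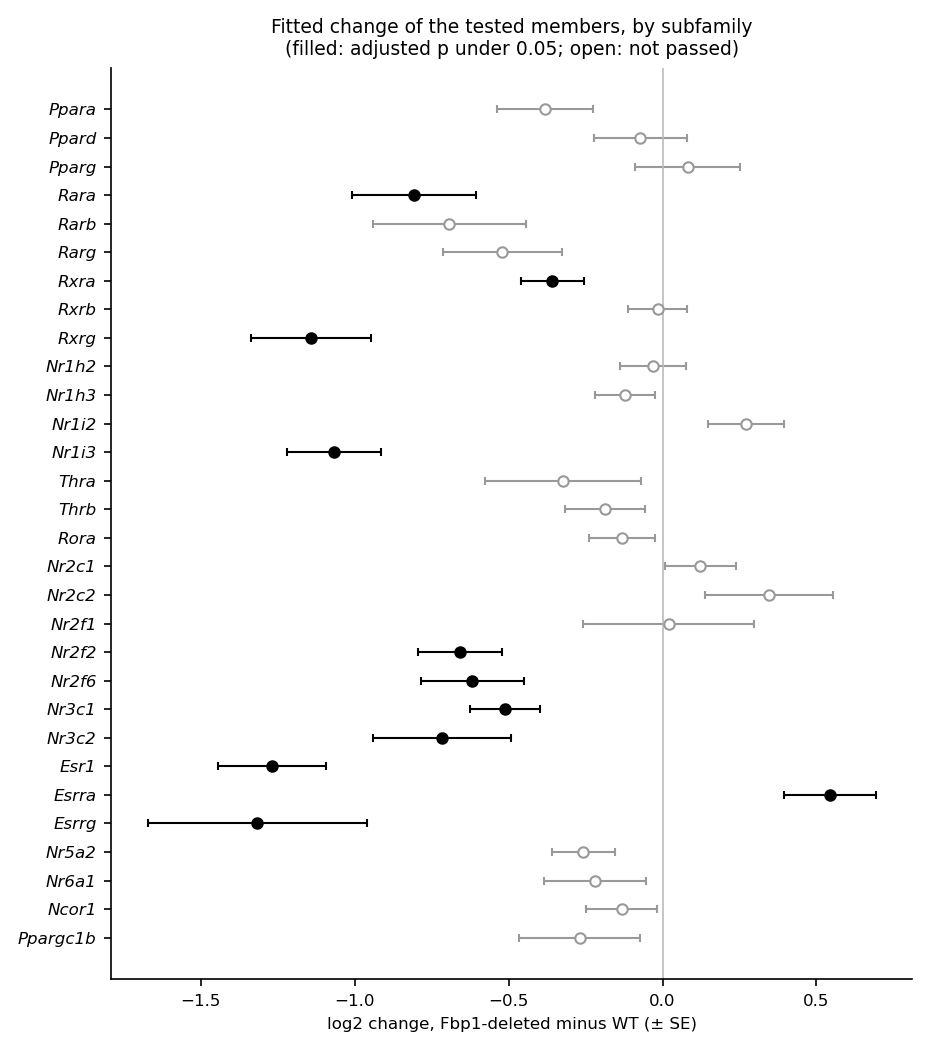
Fitted log2 change (Fbp1-deleted minus WT) with its standard error for the 30 tested genes, ordered by subfamily. Filled points passed the test, and of these 10 lie left of 0 and Esrra alone lies right of it.

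The groups did not overlap, with every Fbp1-deleted liver below every WT liver, for 6 members (Esr1, Nr1i3, Rxrg, Nr3c1, Rara and Rarb). Such a gap was found for 6.89% of all genes tested. No member had all Fbp1-deleted livers above all WT livers, a gap found for 6.57% of all genes. Fbp1-deleted replicate 8 was the library nearest to WT for 8 of the 11 members that passed. It was also the Fbp1-deleted liver nearest to WT on the first principal component of all genes tested, at -6.39. The matching share over all genes that passed was not counted, so the 8 are not shown to be particular to the members. The calls of Rara, Rxrg, Nr1i3, Nr2f2, Nr3c1 and Esr1 held in each of 19 other settings of scaling, filter, test and libraries.

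**Figure D2:**
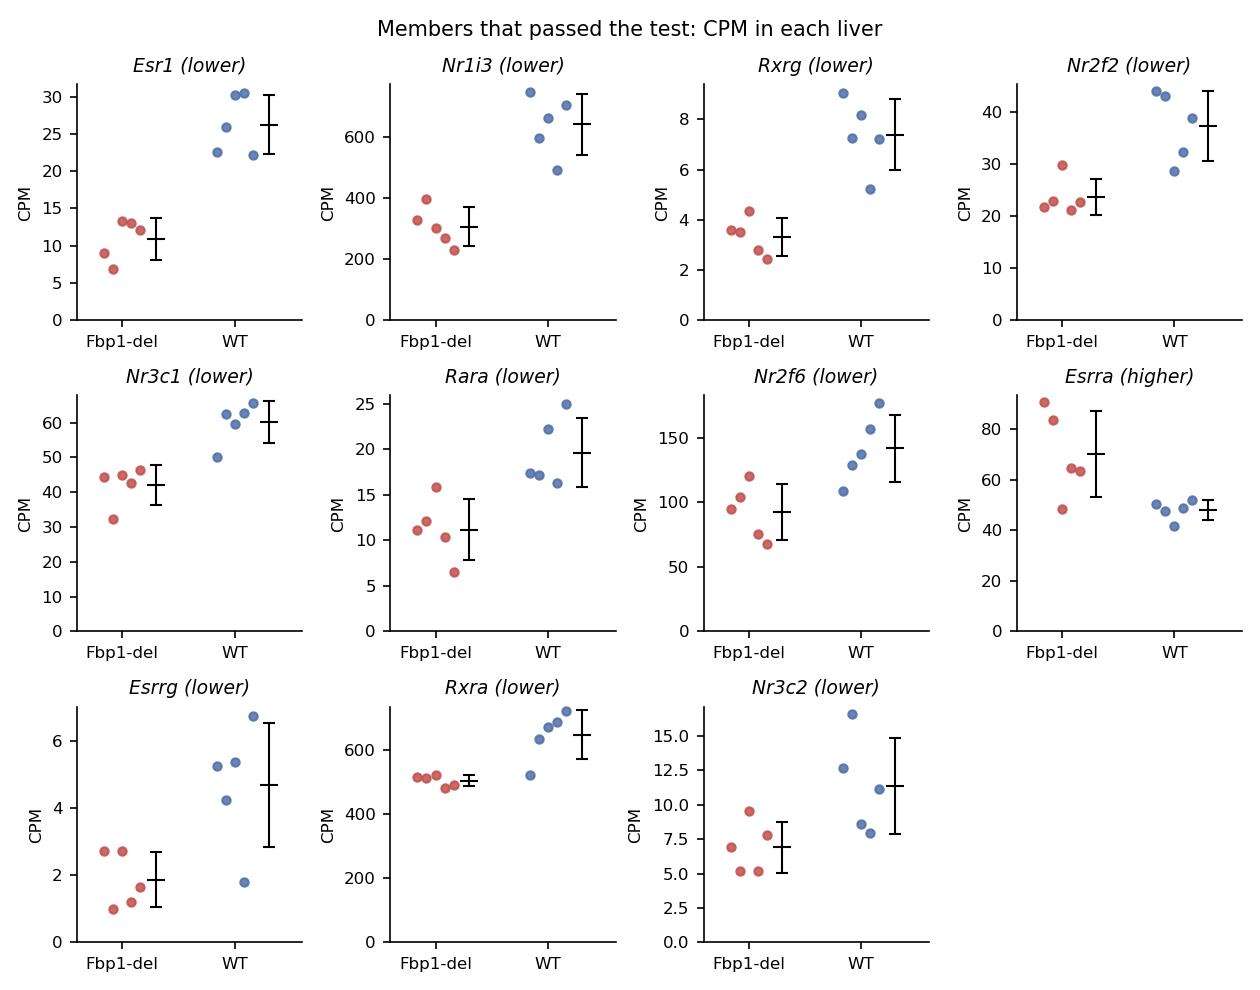
CPM in each liver for the 11 genes that passed the test, Fbp1-deleted left and WT right, with mean ± SD (n = 5 each) as black bars. Points within a group run in the order of replicate number, and 5 of the 10 lower genes show no overlap between groups.

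Divided by the exonic length of the gene, the WT levels of the members spanned 145 CPM per kb for Nr1i3 to 0.0145 CPM per kb for Vdr. In WT livers the order was led by Nr1i3 (145 CPM per kb), Rxra (118), Nr1h3 (48.0), Nr2f6 (47.5), Nr1i2 (40.6) and Ppara (27.7). Only 5 of the 30 neighbouring pairs in that order had WT ranges that were apart, namely Rxra over Nr1h3, Ppara over Nr1h2, Nr3c1 over Rora, Nr6a1 over Rarb and Nr2f1 over Vdr. In Fbp1-deleted livers Rxra came first with 92.2 CPM per kb, Nr1i3 followed with 69.4 and Nr1i2 with 49.0. Esr1 stood at rank 26 in Fbp1-deleted and 22 in WT livers, Rara at rank 20 in Fbp1-deleted and 14 in WT livers, and Esrra at rank 7 in Fbp1-deleted and 9 in WT livers.

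**Figure D3:**
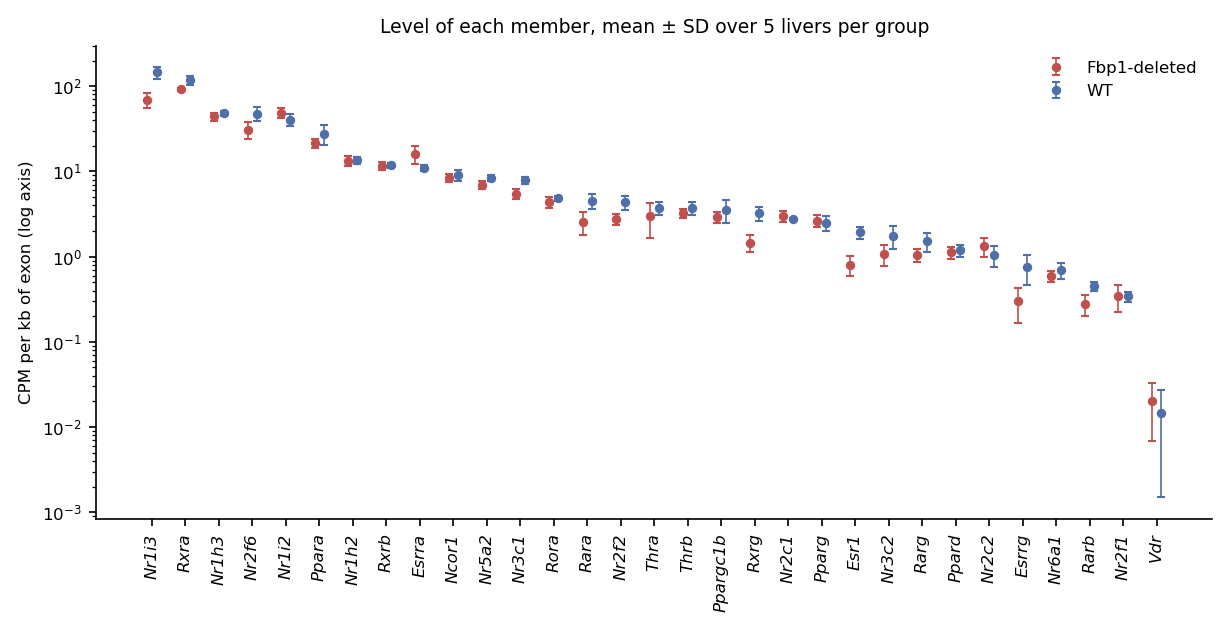
Level of each of the 31 genes in CPM per kb of exon on a log axis, mean ± SD over 5 livers, with Fbp1-deleted left and WT right of each pair. Genes run in the order of their WT mean, from Nr1i3 at 145 to Vdr at 0.0145 CPM per kb.

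The lipid-sensing receptors did not pass the test. Ppara, the receptor for fatty acids that drives their oxidation in fasting, was at 97.4, 71.2, 83.4, 79.7 and 76.1 CPM in Fbp1-deleted livers, against 77.5, 97.3, 153, 106 and 98.3 CPM in WT livers. Its groups overlapped, with WT replicate 3 above the other WT livers (log2 change -0.38, SE 0.16, adjusted p = 0.0969, edgeR). Without WT replicate 1, the lowest WT liver, Ppara passed (log2 change -0.48, adjusted p = 0.0403), and with all livers it passed with upper quartile scaling or library totals alone (adjusted p = 0.0458 and 0.0401).

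Ppard, the widely expressed member of that subfamily, had a log2 change of -0.07 (adjusted p = 0.772), and Pparg, the regulator of fat storage, one of 0.08 (adjusted p = 0.772, edgeR). The liver X receptors, which sense oxysterols, did not pass either. Nr1h3, the form most expressed in these livers, averaged 111 ± 12.1 CPM in Fbp1-deleted and 121 ± 7.57 CPM in WT livers (SD, n = 5 each; log2 change -0.12, SE 0.10, adjusted p = 0.413, edgeR). Nr1h2 averaged 44.7 ± 5.62 CPM in Fbp1-deleted and 45.7 ± 4.27 CPM in WT livers, with a log2 change of -0.03 (SE 0.11).

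Among the listed targets of PPARA, 7 of 21 tested were higher and 0 lower in Fbp1-deleted livers, with a median log2 change of 0.25, where 10.6% of all genes tested were higher, 10% lower and the median of all was 0.01. The same shares are the background of each list of targets given after it. The droplet coat gene Plin2 rose by 0.83 (SE 0.13, adjusted p = 0.00111), the hormone gene Fgf21 by 2.64 (SE 0.53, adjusted p = 0.00744) and the lipase inhibitor Angptl4 by 0.59 (SE 0.14, adjusted p = 0.00881, edgeR). Of 7 tested targets of PPARG only Cidec, a gene of lipid droplet growth, passed, with a rise of 2.72 (SE 0.39, adjusted p = 0.00146). G0s2, Plin4 and Fabp4 had changes of 0.95, 1.64 and 0.29 (adjusted p = 0.0566, 0.0663 and 0.397), and this list had 3 higher genes without Fbp1-deleted replicate 8 and 2 without Fbp1-deleted replicate 10 or WT replicate 3 or 4. G0s2 and Plin4 also passed with DESeq2 (adjusted p = 0.00421 and 0.0185), limma-voom (0.0347 and 0.0161) and no robust shrinkage (0.0334 and 0.0249). Of 12 LXR targets 1 passed: Pltp, the phospholipid transfer protein, fell by 0.87 in log2 units (SE 0.27, adjusted p = 0.0403). The call of Pltp did not hold when any 1 was left out of Fbp1-deleted replicates 6, 7, 9 and 10 or WT replicates 2, 3 and 5 (adjusted p = 0.0965, 0.0754, 0.0962, 0.0856, 0.0591, 0.0879 and 0.0875). Cyp7a1, Smpdl3a and Lpcat3 had changes of -1.11, 0.30 and 0.28 (adjusted p = 0.052, 0.0603 and 0.0954), and Cyp7a1 passed without Fbp1-deleted replicate 6 or WT replicate 3 (adjusted p = 0.00553 and 0.0412) and, with all livers, with upper quartile scaling, library totals alone, a stricter filter (at least 1 CPM in 5 livers), DESeq2, limma-voom and no robust shrinkage (adjusted p = 0.0428, 0.044, 0.0443, 0.0211, 0.0164 and 0.0258). The LXR list had 1 higher gene without Fbp1-deleted replicate 8 or 10 or WT replicate 3.

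Of the 6 receptors of the retinoid branch, 3 were lower, namely Rara, Rxra and Rxrg, where 10% of all genes tested were lower. Rara (ENSMUSG00000037992.16, chromosome 11, 98927818 to 98974942, plus strand), the retinoic acid receptor alpha, was at 11.1, 12.1, 15.9, 10.3 and 6.56 CPM in Fbp1-deleted livers, against 17.4, 17.2, 22.2, 16.3 and 24.99 CPM in WT livers. The groups did not overlap, and Fbp1-deleted replicate 8 was the highest of its group (1.75-fold lower on the fitted scale; log2 change -0.81, SE 0.20, adjusted p = 0.0134, edgeR). Rarb and Rarg, the other retinoic acid receptors, did not pass.

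Rarb was a low transcript at 1.63, 1.504, 1.94, 0.8496 and 1.32 CPM in Fbp1-deleted livers, against 1.97, 2.25, 2.44, 2.404 and 2.73 CPM in WT livers. Every Fbp1-deleted liver was below every WT liver, but the test was not passed (log2 change -0.69, SE 0.25, adjusted p = 0.0622, edgeR), and without Fbp1-deleted replicate 8 the adjusted p was 0.0305. With all livers Rarb passed with upper quartile scaling, library totals alone, DESeq2 and limma-voom (adjusted p = 0.0479, 0.0473, 0.0491 and 0.0483). Of the annotated exonic bases of Rarb 34.1% are shared with Top2b on the other strand, and the library does not keep strand, so this count is uncertain. Rarg averaged 4.47 ± 0.737 CPM in Fbp1-deleted and 6.43 ± 1.58 CPM in WT livers (SD, n = 5 each), the groups overlapped (log2 change -0.52, SE 0.19, adjusted p = 0.072, edgeR), and it passed without Fbp1-deleted replicate 8 or WT replicate 4 (adjusted p = 0.042 and 0.0396) and with library totals alone (0.0497).

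Rxra (ENSMUSG00000015846.14, chromosome 2, 27676440 to 27762957, plus strand), the main retinoid X receptor of liver and the shared partner of many receptors described here, was at 515, 511, 522, 479.5 and 490.1 CPM in Fbp1-deleted livers, against 521, 634, 671, 685 and 719 CPM in WT livers. WT replicate 1 lay within the range of the Fbp1-deleted livers, and the other WT livers lay above it. The fitted level was 1.28-fold lower (log2 change -0.36, SE 0.10, adjusted p = 0.0242, edgeR). This small change did not pass without Fbp1-deleted replicate 6 or 9 (adjusted p = 0.0542 and 0.0679) or WT replicate 2, 3 or 5 (adjusted p = 0.0507, 0.0503 and 0.0567).

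Rxrg (ENSMUSG00000015843.10, chromosome 1, 167598384 to 167639623, plus strand), a retinoid X receptor known chiefly from muscle and brain, was at 3.59, 3.51, 4.36, 2.79 and 2.42 CPM in Fbp1-deleted livers, against 9.05, 7.27, 8.18, 5.25 and 7.2 CPM in WT livers. All Fbp1-deleted livers lay below all WT livers, and the level was 2.21-fold lower (log2 change -1.14, SE 0.20, adjusted p = 0.00152, edgeR). Rxrb, the third partner receptor, averaged 46.2 ± 4.802 CPM in Fbp1-deleted and 46.7 ± 2.66 CPM in WT livers (SD, n = 5 each) and had a log2 change of -0.02 (SE 0.10, adjusted p = 0.926, edgeR).

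Promoter windows from 250 bases before to 50 bases after a start were read from RefSeq for GRCm38.p6, where 28 of the 31 genes matched with 47 starts. They were searched on both strands for AAGGTCA (the core bound by many nuclear receptors, with a leading A), CACGTG (an E-box), TGACGTCA (a cAMP response element) and GGGCGG (a GC box). AAGGTCA was in 3 of the 47 member windows (6.38%, those of Rxra, Rxrg and Nr6a1) and in 4.72% of 32851 RefSeq windows. The windows of Rxra and Rxrg are shown because both are partner receptors that were lower, with the match in capitals, on the plus strand of each gene, at chr2:27709042-27709341 and chr1:167618015-167618314. The match begins at -49 in Rxra and at -89 in Rxrg relative to the start, which in both genes is not the first of its RefSeq starts. The window at the first start holds no AAGGTCA in either gene. Which start is used in these livers was not tested.
Rxra: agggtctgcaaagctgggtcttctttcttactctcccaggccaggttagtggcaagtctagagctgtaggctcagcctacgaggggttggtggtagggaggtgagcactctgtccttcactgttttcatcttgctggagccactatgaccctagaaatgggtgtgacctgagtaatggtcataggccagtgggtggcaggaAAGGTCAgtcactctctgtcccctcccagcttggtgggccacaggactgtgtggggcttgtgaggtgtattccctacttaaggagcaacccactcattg
Rxrg: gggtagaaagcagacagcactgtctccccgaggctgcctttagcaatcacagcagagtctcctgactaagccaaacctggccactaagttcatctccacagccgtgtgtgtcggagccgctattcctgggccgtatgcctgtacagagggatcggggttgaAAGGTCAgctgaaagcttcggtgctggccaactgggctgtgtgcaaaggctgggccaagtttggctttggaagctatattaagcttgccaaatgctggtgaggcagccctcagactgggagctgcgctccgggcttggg
A match is a description of the letters and shows no binding.

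Of 7 tested retinoic acid targets 2 were lower and 0 higher, with a median log2 change of -0.59. Dhrs3, which turns retinal back to retinol, fell by 0.83 in log2 units to 99.9 ± 18.2 CPM in Fbp1-deleted livers, against 178 ± 34.9 CPM in WT livers (SE 0.16, adjusted p = 0.00287, edgeR). The transglutaminase gene Tgm2 fell by 0.59 in log2 units (SE 0.14, adjusted p = 0.0106). Cyp26a1, which breaks down retinoic acid, did not pass, with a change of -1.20 (adjusted p = 0.0508). Cyp26a1 passed without Fbp1-deleted replicate 10 (log2 change -1.67, adjusted p = 0.00281). With all livers it passed with upper quartile scaling, library totals alone, the stricter filter, DESeq2, limma-voom and no robust shrinkage (adjusted p = 0.0443, 0.0455, 0.0448, 0.00499, 0.0115 and 0.0321), and in each of these the list had 3 lower genes. Without Fbp1-deleted replicates 8 and 10 this list had 4 lower genes.

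Of the xenobiotic receptors, Nr1i3 (CAR) was lower and Nr1i2 (PXR) did not pass. Nr1i3 (ENSMUSG00000005677.14, chromosome 1, 171213970 to 171220701, plus strand), whose product senses drugs and activates their metabolism, was at 329.8, 399.5, 303, 269 and 231 CPM in Fbp1-deleted livers, against 747, 599, 663, 494 and 707 CPM in WT livers. The groups did not overlap, and the level was 2.10-fold lower (log2 change -1.07, SE 0.15, adjusted p = 0.000478, edgeR). Nr1i2 was at 116, 123, 106, 148 and 132 CPM in Fbp1-deleted livers, against 89.9, 93.5, 131, 107 and 96.8 CPM in WT livers. Its groups overlapped and it did not pass (log2 change 0.27, SE 0.12, adjusted p = 0.134, edgeR), but it did without WT replicate 3 (log2 change 0.37, adjusted p = 0.0423).

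Within each liver the ratio of Nr1i2 to Nr1i3, both per kb of exon, was 0.607, 0.533, 0.605, 0.955 and 0.987 in Fbp1-deleted livers, against 0.208, 0.270, 0.342, 0.373 and 0.237 in WT livers. All Fbp1-deleted ratios lay above all WT ratios, and the means were 0.737 ± 0.216 in Fbp1-deleted and 0.286 ± 0.0698 in WT livers (SD, n = 5 each). Of 14 ratios within subfamilies this was the 1 without overlap between groups. Of all single genes tested, 6.57% had every Fbp1-deleted liver above every WT liver and 6.89% had every one below. The count is thus no result about these ratios, and Nr1i3 alone already had no overlap. Ratios within a liver do not depend on library scaling. The ratio of Rxrg to Rxra averaged 0.0157 ± 0.00306 in Fbp1-deleted and 0.0279 ± 0.00853 in WT livers, and that of Rxrb to Rxra 0.126 ± 0.0119 in Fbp1-deleted and 0.1001 ± 0.00970 in WT livers, both with overlap.

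**Figure D4:**
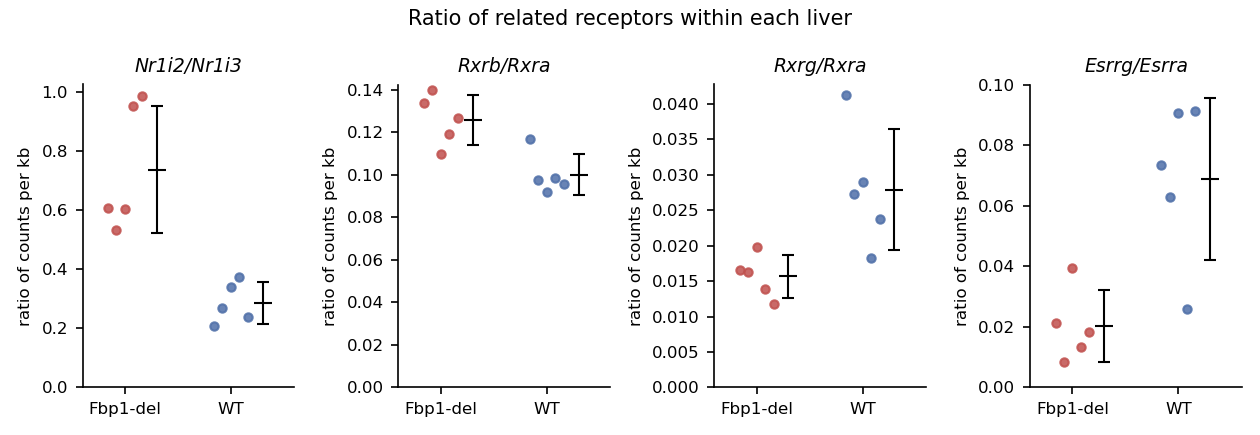
Ratio of related receptors within each liver, both in counts per kb of exon, with mean ± SD (n = 5 each). Nr1i2 over Nr1i3 is higher in each Fbp1-deleted liver than in any WT liver, and the other ratios drawn overlap between groups.

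The annotation places 74.9% of the exonic bases of Nr1i3 also in Tomm40l, a mitochondrial import gene on the other strand, and in those shared bases the non-directional library cannot tell reads of the pair apart. Tomm40l fell by 1.02 in log2 units (SE 0.15, adjusted p = 0.000519, edgeR), to 23.2 ± 2.18 CPM in Fbp1-deleted livers, against 47.1 ± 11.2 CPM in WT livers. The Nr1i3 window (chr1:171213720-171214019, plus strand, GRCm38.p6) is shown as that of the member with the highest mean WT level per kb. It holds CACGTG, in capitals, at -244, a motif found in 4 of 47 member windows (8.51%, in Nr1i3, Rara and Thrb) and 7.15% of all windows. The Rara matches, at 13 and -10, are the same site seen in overlapping windows.
Nr1i3: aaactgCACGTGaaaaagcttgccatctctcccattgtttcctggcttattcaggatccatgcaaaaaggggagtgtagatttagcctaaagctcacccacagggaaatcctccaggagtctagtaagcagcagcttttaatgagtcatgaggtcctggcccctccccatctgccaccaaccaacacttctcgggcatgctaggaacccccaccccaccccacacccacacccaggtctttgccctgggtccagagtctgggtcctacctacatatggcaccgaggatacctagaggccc

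Of 19 listed CAR and PXR targets, 3 were lower and 1 higher in Fbp1-deleted livers, a share close to the 20.6% of all genes tested that passed, and the count is thus no result about these targets. Their median log2 change was -0.09. The drug exporter gene Abcb1a fell by 0.89 (SE 0.18, adjusted p = 0.00433), the stress gene Gadd45b by 1.08 (SE 0.25, adjusted p = 0.00892) and the retinal dehydrogenase gene Aldh1a1 by 0.74 (SE 0.18, adjusted p = 0.0126), all in log2 units. Cyp2b10, the cytochrome P450 gene most used as a readout of CAR, was higher, with 112 ± 43.7 CPM in Fbp1-deleted and 37.7 ± 22.2 CPM in WT livers (log2 change 1.57, SE 0.48, adjusted p = 0.0462, edgeR). Its call did not hold when any 1 was left out of Fbp1-deleted replicates 6, 7, 9 and 10 (adjusted p = 0.0856, 0.0715, 0.105 and 0.0966) or WT replicates 1, 2 and 5 (0.081, 0.0893 and 0.101). Vdr, the vitamin D receptor, was the gene with too few counts to test, at 0 to 0.192 CPM in Fbp1-deleted and 0 to 0.164 CPM in WT livers.

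Neither thyroid hormone receptor passed. Thra was at 11.5, 14.04, 23.7, 7.404 and 11.8 CPM in Fbp1-deleted livers, against 19.6, 18.7, 14.5, 13.8 and 19.3 CPM in WT livers. Fbp1-deleted replicate 8 was above every WT liver while Fbp1-deleted replicates 6, 9 and 10 were below every WT liver (log2 change -0.32, SE 0.25, adjusted p = 0.399, edgeR). Without Fbp1-deleted replicate 8 Thra passed (log2 change -0.61, adjusted p = 0.022). Thra shares 5.7% of its exonic bases with Nr1d1 on the other strand, and reads from those bases cannot be told apart. Nr1d1 averaged 36.7 CPM in Fbp1-deleted and 63.4 CPM in WT livers. Thrb, the main thyroid hormone receptor of liver, averaged 24.04 ± 3.01 CPM in Fbp1-deleted and 27.4 ± 4.63 CPM in WT livers (SD, n = 5 each; log2 change -0.19, SE 0.13, adjusted p = 0.333, edgeR). Rora, a receptor of the liver clock and lipid control, averaged 57.4 ± 8.31 CPM in Fbp1-deleted and 62.9 ± 3.86 CPM in WT livers (log2 change -0.13, SE 0.11, adjusted p = 0.418, edgeR).

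Targets of these receptors went both ways. Of 8 thyroid hormone targets 3 were higher and 2 lower, with a median log2 change of 0.59. Malic enzyme (Me1) rose by 1.64 (SE 0.15, adjusted p = 1.23e-05) and the mitochondrial glycerol phosphate dehydrogenase Gpd2 by 1.69 (SE 0.15, adjusted p = 1.33e-05), while Bcl3 fell by 1.23 (SE 0.23, adjusted p = 0.00331) and Klf9 by 0.49 (SE 0.10, adjusted p = 0.00416) in log2 units. Of 10 tested ROR targets 5 were higher and 1 lower, with a median of 0.52 (2 lower without WT replicate 3 or 4). The bile acid hydroxylase Cyp8b1 rose by 2.67 (SE 0.17), Insig2 by 2.25 (SE 0.21) and Elovl3 by 1.59 (SE 0.28), and the vasopressin receptor Avpr1a fell by 1.03 in log2 units (SE 0.17; adjusted p = 8.22e-07, 3.48e-05, 0.00181 and 0.00124, edgeR).

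The 3 steroid hormone receptors among the members were all lower, where 10% of all genes tested were lower. So small a group describes these 3 genes and no class of receptors. Esr1 (ENSMUSG00000019768.16, chromosome 10, 4611593 to 5005614, plus strand), the estrogen receptor alpha, was at 9.01, 6.85, 13.4, 13.05 and 12.1 CPM in Fbp1-deleted livers, against 22.5, 25.9, 30.2, 30.4 and 22.2 CPM in WT livers. The highest Fbp1-deleted liver lay well below the lowest WT liver, and the level was 2.41-fold lower (log2 change -1.27, SE 0.18, adjusted p = 0.000399, edgeR), the smallest adjusted p among the members.

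Nr3c1 (ENSMUSG00000024431.14), the glucocorticoid receptor, was at 44.5, 32.3, 44.99, 42.6 and 46.5 CPM in Fbp1-deleted livers, against 50.2, 62.6, 59.5, 62.9 and 65.6 CPM in WT livers. The groups did not overlap, Fbp1-deleted replicate 7 was the lowest and the level was 1.43-fold lower (log2 change -0.51, SE 0.11, adjusted p = 0.00744, edgeR). Nr3c2 (ENSMUSG00000031618.13, chromosome 8, 76899442 to 77245012, plus strand), the mineralocorticoid receptor, was at 6.898, 5.18, 9.502, 5.16 and 7.83 CPM in Fbp1-deleted livers, against 12.6, 16.5, 8.61, 7.92 and 11.1 CPM in WT livers. Fbp1-deleted replicate 8 lay among the WT livers, and the other Fbp1-deleted livers lay below all of them (log2 change -0.72, SE 0.22, adjusted p = 0.0363, edgeR). This call did not hold without Fbp1-deleted replicate 6, 7, 9 or 10 (adjusted p = 0.0789, 0.0851, 0.091 and 0.0517) or WT replicate 1, 2 or 5 (0.0789, 0.104 and 0.0643).

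Of 16 tested targets of the glucocorticoid receptor, 7 were higher and 2 lower, with a median log2 change of 0.45 (6 and 3 with library totals alone, and 1 lower without Fbp1-deleted replicate 6 or 10). Pck1 of glucose production rose by 1.34 (SE 0.18, adjusted p = 0.000242), the tryptophan dioxygenase gene Tdo2 by 0.95 (SE 0.15, adjusted p = 0.000882) and the tyrosine aminotransferase gene Tat by 1.67 (SE 0.26, adjusted p = 0.00137, edgeR). Klf9, also a thyroid hormone target, was among the 2 lower ones.

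The estrogen-related receptors, orphan receptors that act on genes of mitochondrial metabolism, went in opposite directions. Esrra (ENSMUSG00000024955.13, chromosome 19, 6910977 to 6921813, minus strand) was at 91.01, 83.9, 48.5, 64.6 and 63.6 CPM in Fbp1-deleted livers, against 50.6, 47.6, 41.9, 49.01 and 52.1 CPM in WT livers. Fbp1-deleted replicate 8 lay among the WT livers, and the other 4 lay above all of them. The fit over all 5 gave a 1.46-fold higher level (log2 change 0.54, SE 0.15, adjusted p = 0.0201, edgeR). The call did not hold without Fbp1-deleted replicate 6 (adjusted p = 0.06) or replicate 7 (adjusted p = 0.0525).

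Esrrg (ENSMUSG00000026610.13, chromosome 1, 187608791 to 188214885, plus strand), a low transcript, was at 2.73, 1.003, 2.71, 1.21 and 1.65 CPM in Fbp1-deleted livers, against 5.26, 4.25, 5.36, 1.803 and 6.74 CPM in WT livers. WT replicate 4 lay among the Fbp1-deleted livers and the other WT livers lay above them. The fit over all livers gave a 2.49-fold lower level (log2 change -1.32, SE 0.36, adjusted p = 0.0201, edgeR). That call did not hold without Fbp1-deleted replicate 9 or WT replicate 5 (adjusted p = 0.0549 and 0.0533). The ratio of Esrrg to Esrra per kb averaged 0.0202 ± 0.0119 in Fbp1-deleted and 0.0689 ± 0.0268 in WT livers (SD, n = 5 each), with overlap between the groups.

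The Esrra window (chr19:6921759-6922058, minus strand, GRCm38.p6, written along the gene) is shown as that of the only member that was higher. Its capitals mark the GC boxes, read as the complement of GGGCGG, at -240 and -157. GC boxes were in 21 of 47 member windows (44.7%) and in 35.7% of all windows. Windows can overlap, as for Rara, so the same box can be counted more than once. AAGGTCA was not found in the 300 bases of the Esrra window.
Esrra: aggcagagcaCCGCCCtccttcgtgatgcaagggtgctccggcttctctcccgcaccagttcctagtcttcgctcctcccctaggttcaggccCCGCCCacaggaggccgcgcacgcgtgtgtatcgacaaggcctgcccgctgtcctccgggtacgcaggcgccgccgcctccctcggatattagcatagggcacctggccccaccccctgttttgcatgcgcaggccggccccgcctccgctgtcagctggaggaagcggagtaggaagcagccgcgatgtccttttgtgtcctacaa

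Of 10 tested ERR targets 6 were higher and 0 lower in Fbp1-deleted livers, with a median log2 change of 0.38. In 6 of the 10 every Fbp1-deleted liver was above every WT liver, against 6.57% of all genes tested. Idh3a, a subunit of isocitrate dehydrogenase, averaged 57.1 ± 10.3 CPM in Fbp1-deleted and 31.5 ± 4.44 CPM in WT livers (log2 change 0.86, SE 0.14, adjusted p = 0.00108, edgeR). Cytochrome c (Cycs) rose by 0.72 (SE 0.14, adjusted p = 0.00352) and Ndufs1 of respiratory complex I by 0.36 (SE 0.09, adjusted p = 0.0128). The coactivator Ppargc1a, a partner of these receptors outside the members, averaged 64.9 ± 27.1 CPM in Fbp1-deleted and 10.2 ± 0.184 CPM in WT livers (log2 change 2.67, SE 0.30, adjusted p = 0.000266).

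Of the COUP-TF receptors, orphan receptors that often repress, Nr2f2 and Nr2f6 were lower. Nr2f2 (ENSMUSG00000030551.14, chromosome 7, 70351944 to 70366735, minus strand) was at 21.7, 22.9, 29.8, 21.2 and 22.6 CPM in Fbp1-deleted livers, against 43.98, 42.98, 28.7, 32.3 and 38.7 CPM in WT livers. Fbp1-deleted replicate 8 lay within the WT range and the other Fbp1-deleted livers below it. The fit over all livers gave a 1.58-fold lower level (log2 change -0.66, SE 0.14, adjusted p = 0.00496, edgeR). Nr2f6 (ENSMUSG00000002393.14, chromosome 8, 71374123 to 71381960, minus strand) was at 94.5, 104, 121, 75.3 and 67.3 CPM in Fbp1-deleted livers, against 109, 129, 137, 157 and 177 CPM in WT livers. Again only replicate 8 lay among the WT livers (log2 change -0.62, SE 0.17, adjusted p = 0.0194, edgeR), and the call did not hold without Fbp1-deleted replicate 9 (adjusted p = 0.055).

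Nr2f6 shares 54.4% of its exonic bases with Ocel1 on the other strand, which fell by 0.83 in log2 units (SE 0.14, adjusted p = 0.00128, edgeR), and reads from the shared bases cannot be told apart. Nr2f1 was low, at 1.75 ± 0.619 CPM in Fbp1-deleted and 1.73 ± 0.229 CPM in WT livers (SD, n = 5 each; log2 change 0.02, SE 0.28, adjusted p = 0.97, edgeR). Nr2f2 is also known from endothelium. The 8 sinusoidal endothelium markers summed to 227, 222, 229, 174 and 292 CPM in Fbp1-deleted replicates 6 to 10. In WT livers they summed to 243 to 294 CPM. Lyve1 passed as higher and 0 of 8 passed as lower. All these markers except Lyve1 had log2 changes below 0. Markers of stellate cells, known for retinoid storage, summed to 355 to 449 CPM in Fbp1-deleted livers and 302 to 390.1 CPM in WT livers, with 0 of 9 passing. Kupffer cell markers summed to 191 to 290.2 CPM in Fbp1-deleted livers and 266 to 367 CPM in WT livers, with 5 of 8 lower. T and B cell markers summed to 2.20 to 3.73 CPM in Fbp1-deleted and 3.77 to 9.15 CPM in WT livers. Of the 4 tested, 2 were lower. Over all genes tested, 10% were lower. Markers of bile duct cells (12.9 to 22.2 CPM in Fbp1-deleted and 16.5 to 29.1 CPM in WT livers) and of neutrophils (1.23 to 6.01 CPM in Fbp1-deleted and 3.44 to 9.94 CPM in WT livers) held 0 genes that passed. Adipocyte markers summed to 0.165 to 0.724 CPM in Fbp1-deleted and 0.271 to 1.03 CPM in WT livers, with Lep at 0 in all livers. The part of these cell types in the receptor changes was not tested.

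The testis receptors Nr2c1 and Nr2c2 did not pass, with log2 changes of 0.12 (SE 0.12, adjusted p = 0.489) and 0.35 (SE 0.21, adjusted p = 0.262, edgeR). Nr2c2 was at 10.5 and 12.2 CPM in WT replicates 1 and 2 but at 19.7 and 19.4 CPM in WT replicates 3 and 4. Mrps25 shares 30.7% of the exonic bases of Nr2c2. Nr6a1, the germ cell nuclear factor, averaged 6.43 ± 0.943 CPM in Fbp1-deleted and 7.49 ± 1.56 CPM in WT livers (SD, n = 5 each; log2 change -0.22, SE 0.17, adjusted p = 0.376, edgeR). Nr5a2, a regulator of bile acid and reverse cholesterol transport genes, was at 40.4, 34.8, 39.8, 47.5 and 43.6 CPM in Fbp1-deleted livers, against 47.1, 53.2, 47.1, 44.9 and 54.3 CPM in WT livers. Of its Fbp1-deleted livers 4 lay below the lowest WT liver, and the test was not passed (log2 change -0.26, SE 0.10, adjusted p = 0.0923, edgeR), though it was with upper quartile scaling or library totals alone (adjusted p = 0.0336 and 0.0306).

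Of 10 NR5A2 targets 3 were lower and 2 higher, with a median log2 change of -0.17. The fatty acid elongase Elovl5 rose by 1.68 (SE 0.09, adjusted p = 1.33e-07) beside Cyp8b1 (edgeR). Nr0b2, an orphan receptor without a DNA-binding domain that represses NR5A2, fell by 3.84 in log2 units (SE 0.57, adjusted p = 0.00171), and without Fbp1-deleted replicate 8 its change was -4.53.

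The coregulators among the members did not pass. Ncor1, the corepressor that holds histone deacetylase at unliganded receptors, was at 103, 91.9, 103, 122 and 113 CPM in Fbp1-deleted livers, against 98.6, 104, 139, 128 and 115 CPM in WT livers. The groups overlapped (log2 change -0.13, SE 0.12, adjusted p = 0.451, edgeR). Ppargc1b, a coactivator of mitochondrial and lipid genes, was at 10.97, 9.14, 12.7, 13.7 and 12.1 CPM in Fbp1-deleted livers, against 15.9, 16.8, 10.4, 8.85 and 18.6 CPM in WT livers. Here the WT livers spread more than the Fbp1-deleted ones, with WT replicate 4 below every Fbp1-deleted liver (log2 change -0.27, SE 0.20, adjusted p = 0.358, edgeR).

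Of all genes tested, 10.6% were higher and 10% lower. Of 22 other coregulators 6 were higher and 1 lower, with a median log2 change of 0.16 (4 and 2 with library totals alone). After Ppargc1a, the smallest adjusted p were those of Tbl1xr1, a subunit of the NCOR complex, at 17.6 ± 1.997 CPM in Fbp1-deleted and 28.9 ± 4.93 CPM in WT livers (log2 change -0.71, SE 0.13, adjusted p = 0.00232), Ncoa4, a carrier in ferritin turnover also named a coactivator (0.85, SE 0.18, adjusted p = 0.0059), and the acetyltransferase Crebbp (0.41, SE 0.11, adjusted p = 0.0234, edgeR). The call of Crebbp was lost without Fbp1-deleted replicate 6 or 9 or WT replicate 1 or 2 (adjusted p = 0.0641, 0.0673, 0.054 and 0.0678), and the number of higher coregulators was 2 without Fbp1-deleted replicate 6 or 9 or WT replicate 1 or 2 and 3 without Fbp1-deleted replicate 7 or WT replicate 3 or 5, and that of lower ones was 2 without Fbp1-deleted replicate 7. Against those same shares of all genes, 3 of 12 tested receptors outside the members were higher and 2 lower, with a median of -0.11. Beside Nr0b2 these included the inducible orphan receptors Nr4a2 (4.36, SE 0.39, adjusted p = 1.87e-05) and Nr4a3 (3.55, SE 0.73, adjusted p = 0.00668), the second with a change of 2.78 without Fbp1-deleted replicate 10.

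**Figure D5:**
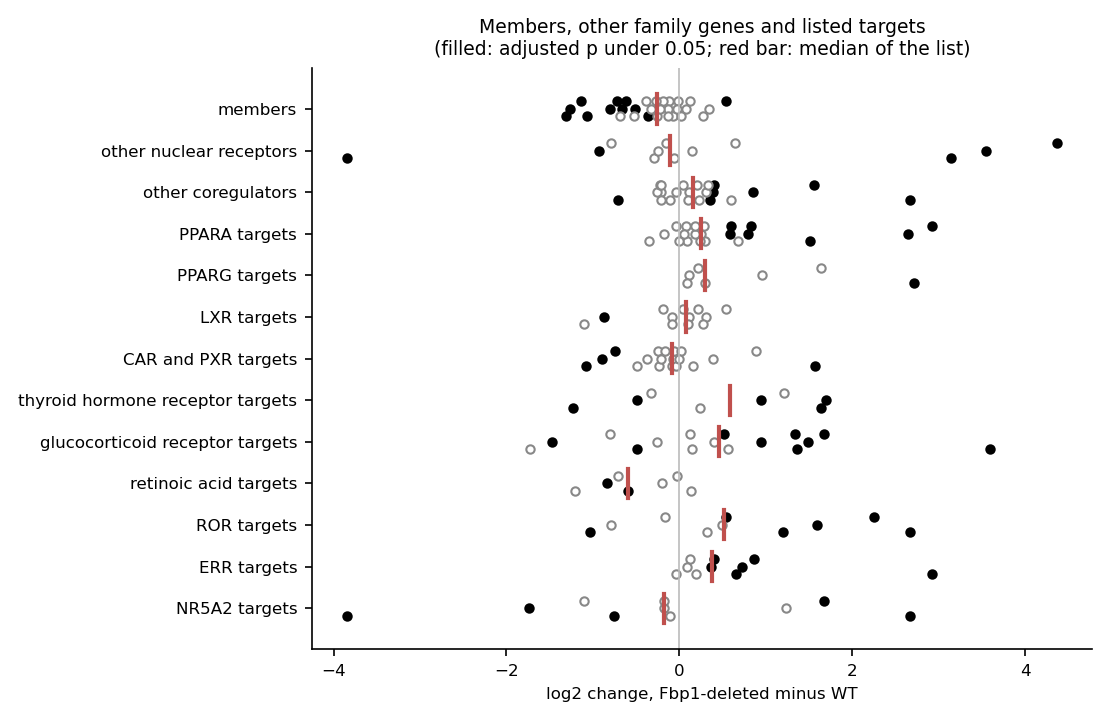
Log2 change (Fbp1-deleted minus WT) of each tested gene among the members, the other nuclear receptors and coregulators, and 10 lists of receptor targets, with the median of each list as a red bar. Filled points passed the test, and the members' median lies at -0.26, against 0.38 for ERR targets and -0.59 for retinoic acid targets.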

How the data were processed

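RNA of 10 snap-frozen livers was sequenced as a non-directional mRNA library, per the labels' protocols. The deposited table gives estimated counts per gene, 1 column per liver, and 0 columns were left unmapped. CASAVA, Salmon and GRCm38 stand, with no versions, in the submitters' processing notes. The design text also describes STAR, featureCounts and DESeq2 in R 3.3.3. Which route made the deposited estimated counts beyond Salmon's name, and whether they were adjusted for transcript length, is not given in the sources used here. All values were whole numbers (0 were not), so none was rounded.

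Of 53392 identifiers 52175 matched GENCODE M21 by identifier and version, 1180 by identifier, and 37 did not match. Totals ran from 17778395 to 23894812 counts per liver, and livers of 1 group differed by more than counting noise (chi-square per degree of freedom at least 16.2). Genes were filtered with filterByExpr, scaled by TMM and tested in edgeR 4.0.16 (R 4.3.3) with a robust quasi-likelihood fit of Fbp1-deleted against WT, no covariate, and Benjamini-Hochberg adjustment over 15392 genes. The fit was tested on simulated data. CPM uses TMM-scaled totals, and exonic length is the union of annotated exons, so levels per kb are approximate. No set test was run. Text names the members, Fbp1 and the 4 genes with the smallest adjusted p of each list, though some genes that this rule names are not reported here. Sex-linked genes, exon-sharing partners and the markers Alb, Cps1, Lyve1 and Lep are named as checks.

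The members and lists were chosen with earlier results of these data known. Of the listed genes 7 stand in 2 or more lists. Alternatives were RLE, upper quartile and no scaling factors, other filters, DESeq2 1.42.0, limma-voom (limma 3.58.1), edgeR without robust shrinkage, a threshold of 0.01 and each liver left out. Leaving out Fbp1-deleted replicates 8 and 10 together was added after seeing the data.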

Additional observations from a re-analysis of the deposited data

Results flagged for a closer look

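In 144 groups of 5 livers checked for a single liver far from the rest, 5 stood out, 3 of them in the 62 member groups. Chance alone gives about 1 in 20 groups. The value given is the gap to the nearest other liver over the whole range of the group. For Nr2f2 it was 0.805, with 29.8 CPM in Fbp1-deleted replicate 8 and 21.2 to 22.9 CPM in the other Fbp1-deleted livers. For Nr3c1 it was 0.726, with 32.3 CPM in Fbp1-deleted replicate 7 and 42.6 to 46.5 CPM in the others. For Nr6a1 it was 0.746, with 10.2 CPM in WT replicate 5 and 6.13 to 7.16 CPM in the other WT livers.

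Outside the members, in WT livers, the ratio was 0.841 for Tdo2, with 985 CPM in replicate 4 and 753 to 789.6 CPM in the others, and 0.714 for Nr4a3, with 0.0514 CPM in replicate 5 and 0.327 to 0.437 CPM in the others.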

How the results depend on the processing

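For the 11 members that passed, 191 of 209 values under other settings kept direction and call, 18 lost the call and 0 reversed. Members that did not pass gained a call 17 times. At adjusted p under 0.01, 5 members were lower and 0 higher, against 633 lower and 678 higher of all genes, and higher counts were 2 for coregulators, 4 for PPARA, 0 for CAR and PXR, 4 for glucocorticoid receptor, 3 for ROR and 3 for ERR targets, with lower counts of 0 for LXR, 1 for glucocorticoid receptor and 1 for retinoic acid targets. LXR targets had 2 lower genes with upper quartile scaling, library totals, the stricter filter (at least 1 CPM in 5 livers), DESeq2, limma-voom and no robust shrinkage, and 0 without a filter. Without a filter CAR and PXR targets had 0 higher and glucocorticoid receptor targets 1 lower gene. Coregulators had 2 lower genes with library totals, PPARG targets 3 higher with DESeq2, limma-voom and no robust shrinkage, and ROR targets 2 lower with DESeq2. Without Fbp1-deleted replicates 8 and 10 (added after seeing the data), higher counts were 2 for PPARG, 1 for LXR and 0 for CAR and PXR targets, and lower counts 1 for glucocorticoid receptor and 4 for retinoic acid targets. Leaving out each liver gave 0 to 2 higher and 6 to 13 lower members, and 1066 to 2060 higher and 1019 to 1858 lower genes in all. For lists it gave 2 to 7 higher and 1 to 2 lower coregulators, 1 to 3 higher PPARG, 0 to 1 higher and 0 to 1 lower LXR, 0 to 1 higher CAR and PXR, 1 to 3 lower glucocorticoid receptor and 1 to 2 lower ROR targets. The cause of these shifts was not tested. Some members with changes near 0 reversed. Leaving out each liver gave log2 changes of -0.16 to 0.017 for Ppard, -0.022 to 0.16 for Pparg, -0.060 to 0.023 for Rxrb, -0.10 to 0.015 for Nr1h2 and -0.14 to 0.18 for Nr2f1. With library totals Pparg was at -0.00365 and Nr2f1 at -0.058, and Nr2f1 was at -0.043 with upper quartile scaling and -0.022 with limma-voom. Without Fbp1-deleted replicates 8 and 10, Rxrb was at 0.036, Nr1h2 at 0.019 and Nr2f1 at -0.35. The median log2 change of all genes with library totals was -0.08, and -0.06 after upper quartile scaling. No pairing of livers between the groups is given, so no paired analysis was run. Rarb, Esrrg, Nr2f1 and Rxrg had a few CPM at most in some livers, where counting noise limits the precision, and Vdr was too low to test.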
